A study of Mus musculus with 9 samples.

Results

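The genes described here are 10 genes of the tendon lineage. They comprise the transcription factor genes Scx, Mkx and Egr2, the tenocyte membrane protein gene Tnmd, the fibril-associated collagen genes Col14a1 and Col12a1, the small leucine-rich proteoglycan genes Fmod, Kera and Dcn, and the matricellular gene Thbs4. They were taken by symbol from the 52550 genes of a deposited count table, each symbol matched 1 row, and 10 of 10 passed the filter on low counts that left 13255 genes to test. RNA came from micromass cultures, which are high-density drops of cells from mouse forelimbs at embryonic day 12, grown in a serum medium with β-glycerol phosphate and ascorbic acid that lets limb mesenchyme form cartilage. For 6 days 3 cultures received the caspase inhibitor Z-VAD-FMK (FMK) at 100 µM, 3 received the caspase inhibitor Q-VD-OPH (OPH) at 100 µM, and 3 received DMSO, the vehicle. The labels call the cells limb-derived chondroblasts and the cultures biological replicates; they name no strain or genotype. Both inhibitors are peptide ketones that bind the catalytic cysteine of many caspases. They differ in the amino-terminal cap (benzyloxycarbonyl in Z-VAD-FMK, quinoline in Q-VD-OPH), in the peptide (valine-alanine-aspartate and valine-aspartate) and in the reactive group (a fluoromethyl ketone and a difluorophenoxymethyl ketone).

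Tendon is built by tenocytes, which lay down parallel fibrils of collagen I. Scleraxis, a basic helix-loop-helix factor encoded by Scx, marks tendon progenitors of the limb, which arise beside cartilage progenitors, and TGF-β signalling is needed for tendons to form. Mohawk, the homeobox factor of Mkx, and the zinc finger factor of Egr2 act on tendon collagen genes, and tenomodulin, the membrane glycoprotein of Tnmd, marks the more mature tenocyte. Collagens XII and XIV and the leucine-rich proteoglycans fibromodulin, keratocan and decorin sit on collagen fibrils and control their growth and spacing. Several of these genes are also active outside tendon, decorin and collagen XII in most connective tissues and keratocan in the cornea.

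The sequences just before the transcription starts of 3 members with a RefSeq window are shown because Tnmd and Fmod lay lower in every inhibitor library than in any DMSO library, and Thbs4 lay higher in every FMK library. Col14a1 also lay lower in every inhibitor library but had no matched window. Each is 250 bases from RefSeq (GRCm38.p6), 5′ to 3′ on the gene's strand, and runs up to the base before RefSeq's annotated start. The Tnmd window lies at chrX:133850758-133851007 (plus strand), that of Fmod at chr1:134037004-134037253 (plus strand) and that of Thbs4 at chr13:92794819-92795068 (minus strand). Capitals mark matches to 3 short motifs, looked for on both strands.
Tnmd: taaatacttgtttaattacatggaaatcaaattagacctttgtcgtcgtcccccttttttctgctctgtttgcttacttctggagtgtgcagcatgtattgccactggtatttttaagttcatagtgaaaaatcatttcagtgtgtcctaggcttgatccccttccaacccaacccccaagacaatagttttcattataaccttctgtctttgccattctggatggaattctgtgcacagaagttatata
Fmod: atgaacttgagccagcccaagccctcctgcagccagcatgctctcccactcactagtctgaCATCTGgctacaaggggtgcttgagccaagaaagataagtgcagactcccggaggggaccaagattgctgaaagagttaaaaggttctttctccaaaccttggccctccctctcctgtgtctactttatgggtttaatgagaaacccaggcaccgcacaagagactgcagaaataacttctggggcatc
Thbs4: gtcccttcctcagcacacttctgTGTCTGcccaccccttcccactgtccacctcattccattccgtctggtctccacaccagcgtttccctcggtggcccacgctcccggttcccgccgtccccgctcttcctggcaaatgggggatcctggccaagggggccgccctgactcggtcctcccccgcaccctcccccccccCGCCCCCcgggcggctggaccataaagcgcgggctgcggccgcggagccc
The motifs were an E-box of the kind that scleraxis binds (CAGATG), a core EGR motif (GTGGGCG or GGGGGCG) and a SMAD box (CAGACA). In Fmod the capitals are an E-box on the opposite strand, 189 to 184 bases before the start. In Thbs4 they are a SMAD box 227 to 222 bases before the start and an EGR core 50 to 44 bases before it, both on the opposite strand. The Tnmd window held none of these letters, and no matches overlapped. Among 32817 RefSeq promoter windows of the same length, 14.5% held the E-box, 19.7% the EGR core and 17.1% the SMAD box. Of the other members, Kera had no match in its window, and Egr2 had an EGR core 31 to 25 bases before 1 of its 5 annotated starts. RefSeq windows were matched for 5 of the 10 members.

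Library totals were 5659789 to 6867350 counts. Cartilage genes were present in DMSO cultures, with Sox9, the master factor of cartilage, at 410.0 to 537 CPM (counts divided by TMM-scaled library size, not by gene length), the collagen II gene Col2a1 at 991 to 1546 CPM and the aggrecan gene Acan at 57.7 to 96.5 CPM. Marker RNA of some other cell types differed between the groups. The 12 macrophage markers summed to 27.0 to 40.5 CPM with FMK, 183 to 211 CPM with OPH and 1248 to 2462 CPM with DMSO, and 12 of 12 were called lower with each inhibitor. The 10 adipocyte markers summed to 112 to 202 CPM with FMK (Cidec and Lep at 0), 720.1 to 2755 CPM with OPH and 476 to 2345 CPM with DMSO. Of the 9 adipocyte markers tested, 5 fell with FMK (9 with the replicate block described below) and 0 were called with OPH (1 higher and 1 lower with the block). Those 5 became 1 without DMSO replicates 1 or 2 or FMK replicates 1 or 2, 2 without FMK replicate 3, 3 without OPH replicate 1 and 9 without DMSO replicate 3. The 12 cartilage genes summed to 1424 to 1531 CPM with FMK, 1363 to 2326 CPM with OPH and 2798 to 4107 CPM with DMSO, and 8 of them fell with FMK (10 with the block) and 6 with OPH (9 with the block, 3 without DMSO replicate 3), where 10.1% and 8.11% of all genes tested fell. Skeletal muscle markers summed to 114 to 507 CPM with FMK (Myf5, Pax7 and Ckm at 0), 226 to 651 CPM with OPH (the same 3 at 0) and 211 to 745 CPM with DMSO (Pax7 at 0). Of 11 muscle markers tested, 0 were called in each comparison. With the block 6 were lower with FMK, 1 was higher and 1 lower with OPH, and 6 were higher with OPH than with FMK. Over all genes with the block, 13.4% were lower with FMK, and 11.6% were higher and 11.3% lower with OPH. With OPH against FMK 7.78% of all genes were higher. Those shares apply to all block counts of this paragraph. Endothelial, glial (Sox10 at 0 in all groups) and keratinocyte markers each summed to at most 33.4 CPM in a library. The part of any of these in the values that follow was not tested.

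With FMK against DMSO, the tendon lineage divided. Tnmd, Col14a1 and Fmod fell, Thbs4 rose, and the other 6 members were not called. These 4 calls in 10 compare with 20.6% of all genes tested (10.4% higher and 10.1% lower) at an adjusted p under 0.05 in edgeR's quasi-likelihood test over all genes. The CPM of the groups did not overlap for 4 members, against 35.5% of all genes. The median log2 fold change was -0.29 over the members and -0.0064 over all genes tested. With OPH against DMSO, Tnmd, Col14a1 and Kera fell and 0 members rose, against 16.7% of all genes called (8.61% higher and 8.11% lower). The groups did not overlap for 5 members, against 33.7% of all genes. Here the median log2 fold change was -0.63 over the members and -0.0025 over all genes tested. Between the inhibitors, OPH against FMK, Col14a1 was higher and Thbs4 lower with OPH, and 8.86% of all genes were called (4.2% higher and 4.66% lower). Those groups did not overlap for 2 members, against 27.1% of all genes. In a bulk culture, changes in the number of tenocytes, in RNA per tenocyte and in other cells that express these genes cannot be told apart.

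**Figure D1:**
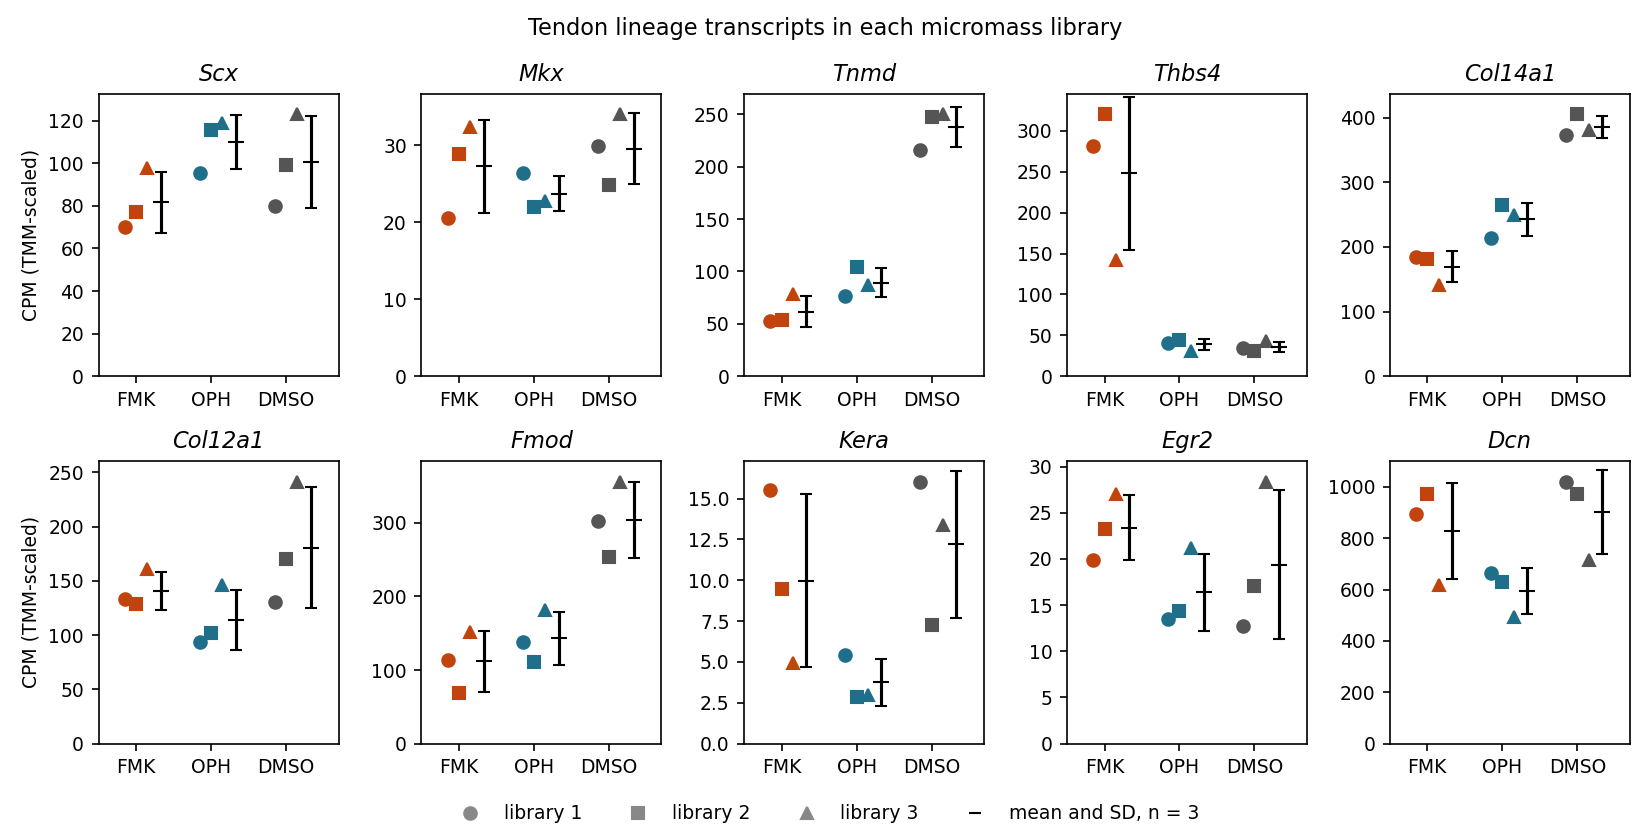
CPM of the 10 tendon lineage genes (vertical axes, linear, from 0) in each library of the FMK, OPH and DMSO groups (horizontal axes), with symbols for the library number and bars for the mean and SD of 3 libraries. Tnmd, Col14a1 and Fmod are lower in all 6 inhibitor libraries than in any DMSO library, and Thbs4 is high only in the 3 FMK libraries (142 to 320.1 CPM).

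Libraries that carry the same number in the labels deviated together from their group means, so the fit was also made with the replicate number as a block. With it 26.8%, 22.9% and 16.1% of all genes were called in the 3 comparisons (FMK against DMSO, OPH against DMSO, OPH against FMK). Among the members the block brought the counts to 1 higher and 5 lower with FMK, to 0 higher and 6 lower with OPH, and to 4 higher and 5 lower with OPH against FMK, where 7.78% and 8.36% of all genes were called higher and lower. Each gained call is given below beside the gene, and no call was lost.

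Among the transcription factor genes, none passed the test without the block. Scx (chromosome 15, 76457452 to 76459458, plus strand) stood at 70.2, 77.2 and 97.8 CPM with FMK, at 95.5, 116 and 119 CPM with OPH, and at 80.1, 99.0 and 123 CPM with DMSO. The 3 groups overlapped, and within each group library 1 was lowest and library 3 highest. The log2 fold change was -0.30 with FMK (95% interval -0.66 to 0.051, adjusted p = 0.233) and 0.13 with OPH (-0.22 to 0.48, adjusted p = 0.679). With the replicate block Scx was called lower with FMK (-0.30, adjusted p = 0.0180) and higher with OPH against FMK (0.44, adjusted p = 0.00123). In numbers 1, 2 and 3 taken alone, FMK differed from DMSO by -0.19, -0.36 and -0.33 (log2) and OPH from FMK by 0.44, 0.58 and 0.28. Scx lies inside the gene Bop1 on the opposite strand (170 to 249 counts per library), and the sources used here do not state whether counting used strand.

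Mkx (chromosome 18, 6934518 to 7004780, minus strand) stood at 20.6 to 32.4 CPM with FMK, 22.0 to 26.4 CPM with OPH and 24.8 to 34.0 CPM with DMSO. All 3 ranges overlapped. A gene on the same strand, AC148004.2 (6910459 to 6936621), overlaps Mkx and has no counts of its own in the deposited data. The deposited position of Mkx, 6910459, is the start of that gene. The Mkx counts may thus include reads from AC148004.2 and are uncertain. The log2 fold change was -0.12 with FMK (95% interval -0.49 to 0.25, adjusted p = 0.699) and -0.32 with OPH (-0.69 to 0.052, adjusted p = 0.255), neither called with the block (adjusted p = 0.652 and 0.187). Egr2 (chromosome 10, 67535475 to 67542188, plus strand), whose product responds to mechanical load and growth factors, stood at 19.9 to 27.0 CPM with FMK, 13.5 to 21.2 CPM with OPH and 12.8 to 28.3 CPM with DMSO. The spread was widest in DMSO, where library 3 held the highest value of the 9. Against DMSO its log2 fold change was 0.26 with FMK (adjusted p = 0.552) and -0.25 with OPH (adjusted p = 0.607). OPH differed from FMK by -0.52 (95% interval -1.09 to 0.057, adjusted p = 0.275), a difference called with the replicate block (-0.54, adjusted p = 0.0350) and lower in 3 of 3 numbers.

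Tnmd (chromosome X, 133850980 to 133865577, plus strand) fell with both inhibitors. It stood at 52.9, 53.3 and 78.7 CPM with FMK, at 76.4, 104 and 87.0 CPM with OPH, and at 215, 247 and 250 CPM with DMSO. Both inhibitor groups lay below every DMSO library, and FMK library 3 lay inside the OPH range. With FMK the mean was 61.7 ± 14.8 CPM, against 237 ± 19.1 CPM with DMSO (SD, n = 3 each), a log2 fold change of -1.95 ± 0.16 (SE, adjusted p = 2.17e-06). With OPH the mean was 89.2 ± 13.9 CPM and the log2 fold change -1.41 ± 0.15 (adjusted p = 5.27e-05). The direct difference of OPH from FMK was 0.54 (95% interval 0.19 to 0.88, adjusted p = 0.0547). With the replicate block that difference was called (0.54, adjusted p = 0.00149), and OPH was above FMK in 3 of 3 numbers, by 0.53, 0.96 and 0.14 on the log2 scale.

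The fibril-associated collagens differed in spread. Col14a1 (chromosome 15, 55307750 to 55520803, plus strand) stood at 184, 181 and 141 CPM with FMK, at 214, 265 and 250 CPM with OPH, and at 373, 405 and 380.4 CPM with DMSO. The groups did not overlap, with FMK lowest and OPH between FMK and DMSO. Col14a1 fell by 1.19 on the log2 scale with FMK (SE 0.10, adjusted p = 2.01e-07) and by 0.67 with OPH (SE 0.10, adjusted p = 0.000197). It was higher with OPH than with FMK by 0.52 ± 0.10 (95% interval 0.30 to 0.74, adjusted p = 0.00446).

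Col12a1 (chromosome 9, 79598991 to 79718831, minus strand) stood at 133, 129 and 161 CPM with FMK, at 94.1, 102 and 146 CPM with OPH, and at 131, 170.5 and 241 CPM with DMSO. In each group library 3 was highest, and the ranges overlapped. The log2 fold change was -0.36 with FMK (95% interval -0.98 to 0.25, adjusted p = 0.409) and -0.67 with OPH (-1.28 to -0.049, adjusted p = 0.145). With the replicate block Col12a1 was called lower with FMK (-0.33, adjusted p = 0.00906), lower with OPH (-0.65, adjusted p = 4.22e-06) and lower with OPH against FMK (-0.33, adjusted p = 0.0172). In numbers 1, 2 and 3 alone the differences were 0.028, -0.41 and -0.59 with FMK and -0.47, -0.73 and -0.72 with OPH, so FMK was lower in 2 of 3 numbers and OPH in 3 of 3.

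**Figure D2:**
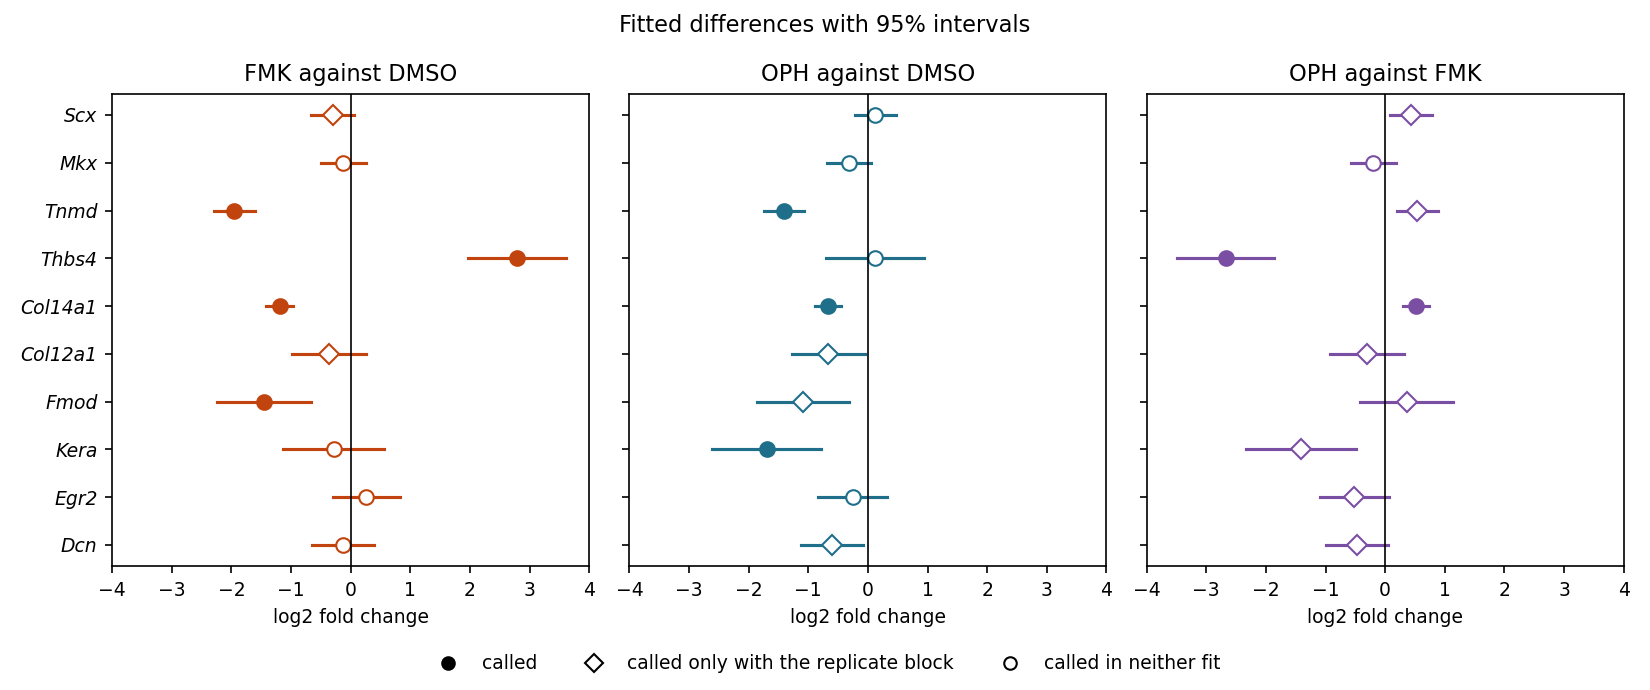
Fitted log2 fold changes (horizontal axes) of the 10 genes in 3 comparisons, with bars for the 95% interval of the fit without the block. Filled circles are genes called at an adjusted p under 0.05, open diamonds are genes called only with the replicate block, and open circles are genes called in neither fit; the Thbs4 interval with FMK (1.98 to 3.61) lies clear of that with OPH (-0.71 to 0.94).

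Among the small leucine-rich proteoglycans, Fmod, Kera and Dcn each lay lower in every OPH library than in any DMSO library, while with FMK this held for Fmod and not for Kera or Dcn. Of all genes tested, 17.1% lay lower in this way with OPH and 18.1% with FMK. Fmod, which encodes the fibril-binding fibromodulin (chromosome 1, 134037254 to 134048277, plus strand), stood at 114, 69.1 and 152 CPM with FMK, at 138, 110.3 and 181 CPM with OPH, and at 302, 253 and 355 CPM with DMSO. Every inhibitor library lay below every DMSO library, and in each group library 2 was lowest and library 3 highest. Fmod fell with FMK by 1.45 on the log2 scale (SE 0.33, adjusted p = 0.0238). That call was lost without DMSO replicate 1 (adjusted p = 0.0683), DMSO replicate 3 (adjusted p = 0.0710) or FMK replicate 1 (adjusted p = 0.0776). With OPH its log2 fold change was -1.09 (95% interval -1.86 to -0.31, adjusted p = 0.0695), which the replicate block brought past the threshold (-1.10, adjusted p = 3.08e-10). The same block put Fmod higher with OPH than with FMK (0.39, adjusted p = 0.00537), against 0.36 (-0.42 to 1.14, adjusted p = 0.596) without it.

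Kera, the keratocan gene (chromosome 10, 97606879 to 97613692, plus strand), was the least counted member, with 19 to 103 counts per library. It stood at 15.5, 9.46 and 4.97 CPM with FMK, at 5.42, 2.84 and 3.01 CPM with OPH, and at 16.0, 7.26 and 13.4 CPM with DMSO. The OPH libraries lay below every DMSO library, while FMK ranged across both. Kera fell with OPH by 1.69 on the log2 scale (SE 0.42, adjusted p = 0.0136). The call was lost without DMSO replicate 1 (adjusted p = 0.0537), OPH replicate 2 (adjusted p = 0.0745) or OPH replicate 3 (adjusted p = 0.0643). With FMK the log2 fold change was -0.29 (95% interval -1.13 to 0.56, adjusted p = 0.682), and its sign turned without FMK replicate 3 (0.029) and in the libraries numbered 1 and 2 (0.097). OPH differed from FMK by -1.41 (-2.33 to -0.49, adjusted p = 0.0571), called with the replicate block (-1.40, adjusted p = 0.00185).

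Dcn, the decorin gene (chromosome 10, 97479609 to 97518143, plus strand), lies in the same proteoglycan gene cluster as Kera. It stood at 893, 974 and 618 CPM with FMK, at 664, 628 and 492 CPM with OPH, and at 1019, 972 and 714 CPM with DMSO. Library 3 was lowest in each group, and the OPH libraries lay below the DMSO libraries. With FMK the log2 fold change was -0.12 (95% interval -0.64 to 0.40, adjusted p = 0.768), and its sign turned without FMK replicate 3 (0.050). With OPH it was -0.60 (-1.12 to -0.079, adjusted p = 0.124), and with OPH against FMK -0.48 ± 0.22 (SE, adjusted p = 0.258). Both were called with the replicate block (-0.60, adjusted p = 1.05e-07, and -0.46, adjusted p = 1.55e-05), and within numbers 1, 2 and 3 OPH lay below DMSO by -0.62, -0.63 and -0.54 (log2).

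Thbs4 encodes thrombospondin-4, a pentameric matrix glycoprotein of tendon and muscle attachment (chromosome 13, 92751590 to 92794818, minus strand). It was the member that rose. It stood at 282, 320.1 and 142 CPM with FMK, at 40.5, 44.6 and 31.3 CPM with OPH, and at 33.9, 30.7 and 42.9 CPM with DMSO. The FMK libraries lay apart from the rest, with library 3 lower than the other two, and OPH overlapped DMSO. The mean was 248 ± 93.7 CPM with FMK, against 35.8 ± 6.33 CPM with DMSO (SD, n = 3 each), a log2 fold change of 2.79 ± 0.34 or 6.92-fold (adjusted p = 0.00155). With OPH the log2 fold change was 0.12 (95% interval -0.71 to 0.94, adjusted p = 0.883). OPH lay below FMK by -2.67 ± 0.34 on the log2 scale (95% interval -3.48 to -1.87, adjusted p = 0.00529), in 3 of 3 numbers. In the libraries numbered 1 and 2 alone, Thbs4 was called higher with OPH too (0.40, adjusted p = 0.0338).

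The members also varied among themselves inside a group. Dcn had its lowest value in library 3 of every group, and Scx, Col12a1, Egr2 and Fmod had their highest there in the FMK and DMSO groups, with deviations of 0.20 to 0.62 (log2) from the group mean. In the OPH group library 3 was again highest for those 4 genes (0.12 to 0.40). Kera was highest in library 1 of all 3 groups, by 0.46 to 0.76. Tnmd was lowest in library 1 of all 3 groups, though with FMK library 2 lay close to it (52.9 and 53.3 CPM). Its highest value was in library 3 with FMK and DMSO and in library 2 with OPH. Col14a1, by contrast, had no library that was highest or lowest in all 3 groups. In library 3 of all 3 groups the summed adipocyte markers were lowest and the summed muscle markers highest, and their part in these deviations was not tested. What the numbers stand for (a litter, a day) is not stated in the labels.

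**Figure D3:**
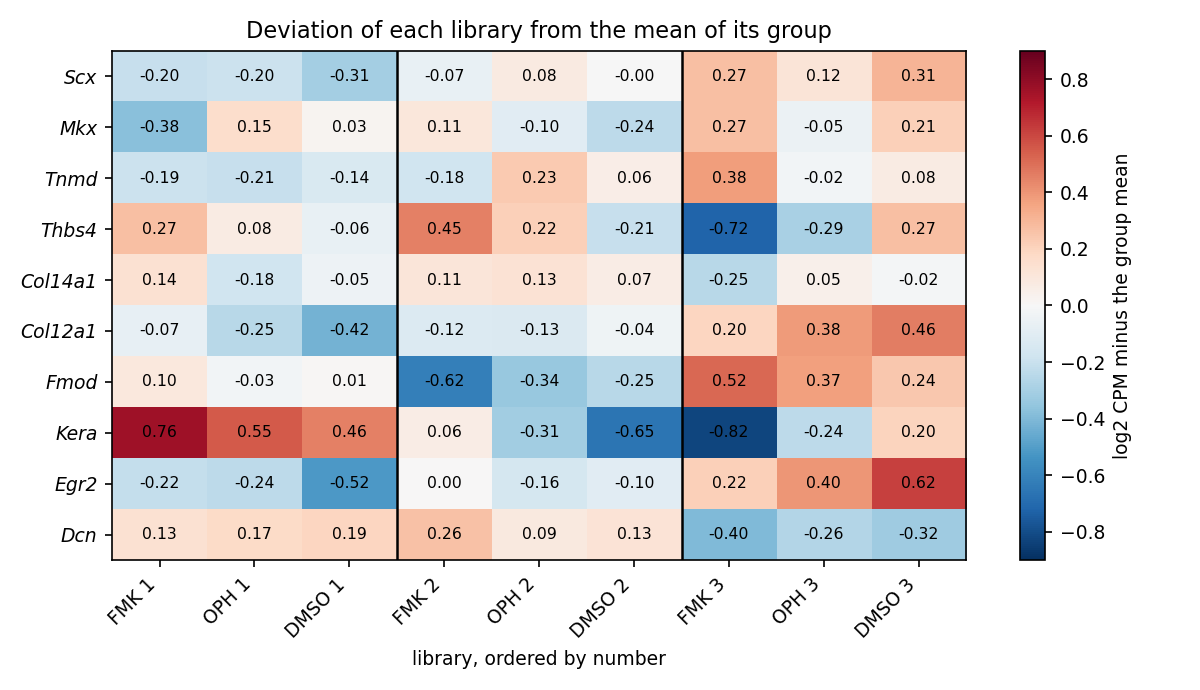
Each library's log2 CPM minus the mean of its group (colour and printed value) for the 10 genes (vertical axis), with libraries ordered by number and, within a number, as FMK, OPH and DMSO. Dcn is below its group mean in the 3 libraries numbered 3 (-0.40, -0.26 and -0.32), and Scx, Col12a1, Fmod and Egr2 are above it there.

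A wider list of 40 genes of tendon development and its matrix, of which 37 were tested, likewise divided. With FMK 6 rose and 9 fell (median log2 fold change 0.098), where 10.4% of all genes tested rose and 10.1% fell. With OPH 3 rose and 10 fell (median -0.25), where 8.61% rose and 8.11% fell. With the replicate block the counts were 16 and 11 with FMK (13.4% of all genes in each direction) and 4 and 17 with OPH (11.6% and 11.3%). With FMK 10 rose without FMK replicate 3, and 5 fell without DMSO replicate 1 or FMK replicate 2. Some genes went one way with both inhibitors. Tgfb2, a TGF-β ligand of the kind that recruits tendon progenitors, stood at 326 ± 31.2 CPM with FMK, 343 ± 17.0 CPM with OPH and 220 ± 5.46 CPM with DMSO (SD, n = 3 each), and rose by 0.57 and 0.64 on the log2 scale (adjusted p = 7.51e-05 and 3.41e-05). Igfbp5, an insulin-like growth factor binding protein gene, rose by 0.63 ± 0.07 and 0.68 ± 0.07 (adjusted p = 4.38e-06 and 3.17e-06). Lower with both were Mfap4, a microfibril protein gene (-1.24 ± 0.11 with FMK, -0.59 ± 0.10 with OPH), Abi3bp (-0.86 ± 0.10 and -0.65 ± 0.10) and Ogn, the osteoglycin gene (-0.52 ± 0.08 and -0.43 ± 0.08).

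**Figure D4:**
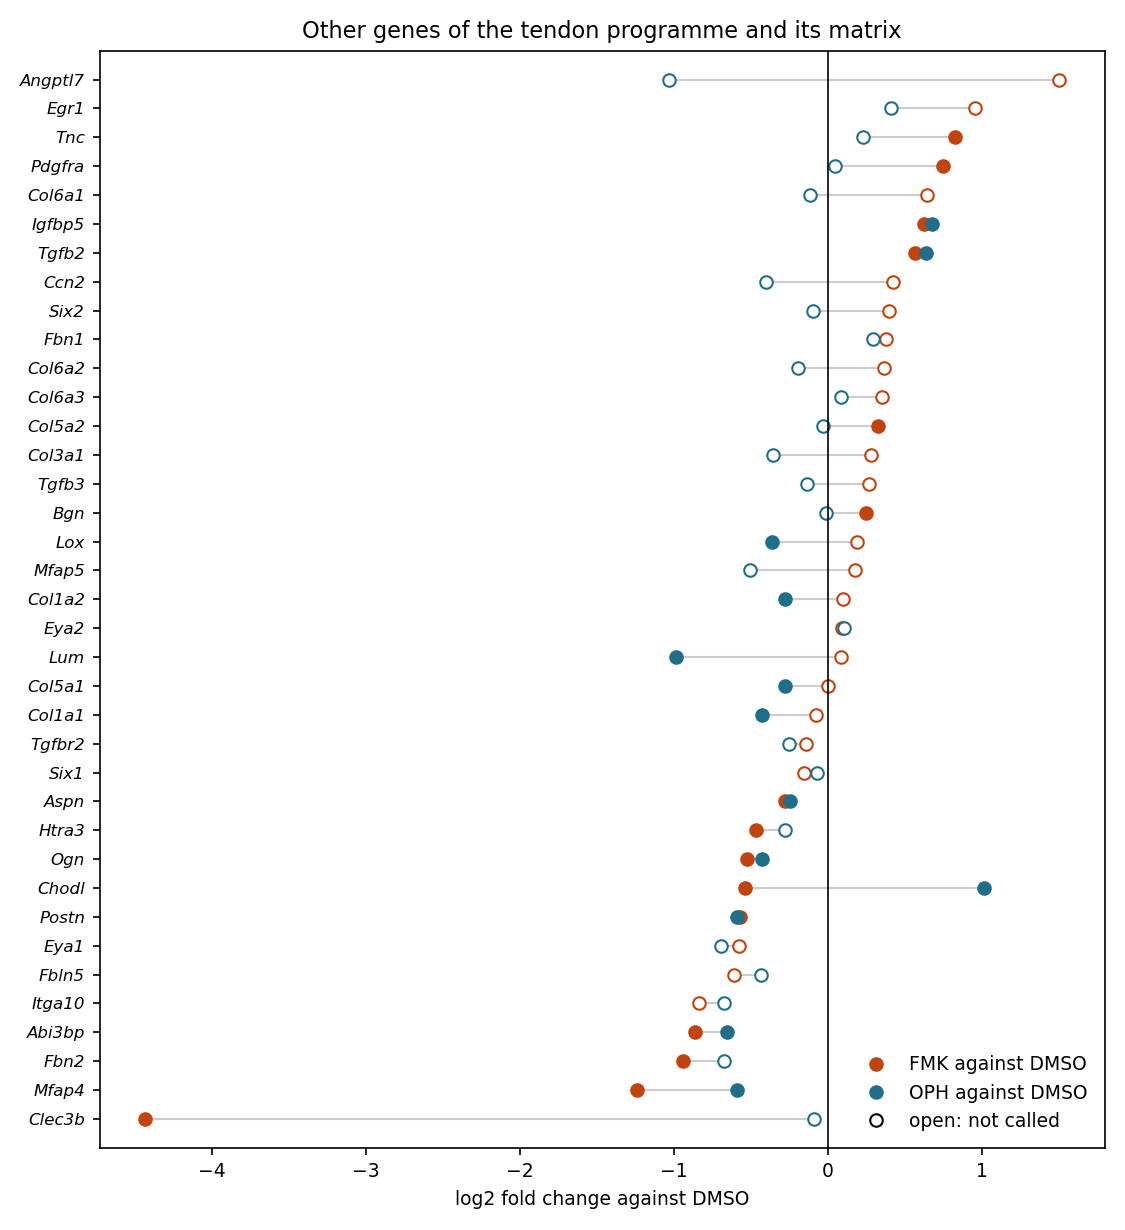
Fitted log2 fold changes against DMSO (horizontal axis) of the 37 tested genes of the wider tendon list (vertical axis, ordered by the FMK value), with 1 point for each inhibitor and open points for genes not called. Tgfb2 and Igfbp5 lie to the right and Mfap4 and Abi3bp to the left with both inhibitors, while Chodl lies right with OPH (1.02) and left with FMK (-0.54, adjusted p = 0.0494, a call lost under 13 of 18 alternatives).

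Between the inhibitors, 3 of the 37 were higher and 12 lower with OPH than with FMK (median -0.26), where 4.2% and 4.66% of all genes were, and 7 were lower without OPH replicates 2 or 3. Collagen I and its crosslinking enzyme were among them. Col1a1 stood at 11247, 10513 and 11699 CPM with FMK and at 8568, 8841 and 8840 CPM with OPH, a difference of -0.35 ± 0.07 (log2, adjusted p = 0.00499), and Col1a2 differed by -0.37 ± 0.06 (adjusted p = 0.000523). Lox, the lysyl oxidase gene, differed by -0.55 ± 0.07 (adjusted p = 8.20e-05). Against DMSO, Col1a1 was called lower with OPH (-0.43, adjusted p = 0.000398) and not called with FMK (-0.077, adjusted p = 0.507). Col1a2 (-0.27 with OPH, 0.098 with FMK) and Lox (-0.36 with OPH, 0.19 with FMK) were also called with OPH and not with FMK. For Lox with FMK, 3 of 18 alternatives gave a call. Chodl, a membrane lectin gene, stood at 46.5 ± 3.67 CPM with OPH and 15.8 ± 1.09 CPM with FMK (1.56 ± 0.18, adjusted p = 5.00e-05). In the list of 24 genes of collagen fibril assembly (23 tested), which shares members with the wider list, 8 rose and 2 fell with FMK, 1 rose and 8 fell with OPH, and 1 was higher and 12 lower with OPH than with FMK. With the replicate block those counts were 12 and 2, 2 and 10, and 1 and 18. For OPH against FMK with the block, 7.78% of all genes were higher and 8.36% lower. The other all-gene shares are those given for the wider list. The 8 that rose with FMK became 5 without DMSO replicate 2 or FMK replicate 1, and the 8 that fell with OPH became 5 without OPH replicate 1. The 1 that rose with OPH became 0 without DMSO replicate 2 or OPH replicates 1, 2 or 3 and 2 without DMSO replicate 3. Its leading member Pcolce2, which enhances procollagen processing, fell with both, to 28.7 ± 0.12 CPM with FMK and 41.3 ± 3.77 CPM with OPH, against 103 ± 10.4 CPM with DMSO. The lysyl oxidase relatives Loxl3 (0.97 ± 0.11) and Loxl1 (0.52 ± 0.08) and the lysyl hydroxylase gene Plod3 (0.52 ± 0.09) rose with FMK.

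Close relatives of the members were read in the same way, against 10.4% of all genes tested that rose and 10.1% that fell with FMK, and 8.61% and 8.11% with OPH. With the replicate block those shares were 13.4% in each direction with FMK, and 11.6% and 11.3% with OPH. Of 12 other leucine-rich proteoglycan genes tested, 2 rose and 5 fell with FMK (median -0.28) and 0 rose and 7 fell with OPH (median -0.47). With FMK the 2 became 0 without DMSO replicate 1 and 1 without DMSO replicate 2 or FMK replicates 1, 2 or 3, and the 5 became 3 without DMSO replicate 1. The 7 with OPH became 4 without DMSO replicate 1 and 3 without OPH replicate 3. Prelp (-1.15 ± 0.15) and Omd (-1.42 ± 0.29) fell with FMK. Lum, the lumican gene, stood at 782, 732 and 498 CPM with FMK, at 390, 268 and 302 CPM with OPH and at 647, 575 and 674 CPM with DMSO. Lum fell with OPH by 0.98 on the log2 scale (SE 0.20, adjusted p = 0.0135), a call lost without DMSO replicate 3 or OPH replicate 3 (adjusted p up to 0.0532). Of the 7 other fibril-associated collagen genes, 5 fell with FMK and 3 with OPH (5 with the replicate block), among them the cartilage collagen gene Col9a1 (-1.58 ± 0.29 with FMK) and Col16a1 (-0.57 ± 0.10 with OPH). The 5 with FMK became 3 without DMSO replicates 1 or 3, FMK replicates 1 or 3 or OPH replicate 1. The 3 with OPH became 1 without DMSO replicates 1 or 3 or OPH replicates 1 or 2, and 5 without OPH replicate 3. Among the other thrombospondin genes 1 of 4 fell with FMK (2 with the block) and 2 of 4 with OPH. Comp, the cartilage oligomeric matrix protein gene, stood at 121 ± 11.7 CPM with FMK, 105 ± 7.70 CPM with OPH and 190 ± 45.8 CPM with DMSO and was called with both, though with FMK not in the libraries numbered 1 and 2 alone (adjusted p = 0.0728). Thbs2 fell with OPH (-0.63 ± 0.10, adjusted p = 0.000220), while Thbs1 (0.041 with FMK, -0.57 with OPH) and Thbs3 (-0.16 and -0.19) were not called. With the replicate block Thbs1 was called lower with OPH (-0.57, adjusted p = 1.73e-06).

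Among 4 other genes of the EGR family and its corepressors tested, 1 was called higher with FMK (2 with the replicate block, and 2 without DMSO replicate 3) and 0 were called with OPH (1 higher without DMSO replicate 3), beside 20.6% and 16.7% of all genes. It was Egr3, at 14.4 ± 1.56 CPM with FMK, 6.05 ± 2.86 CPM with OPH and 7.12 ± 3.10 CPM with DMSO (1.00 ± 0.33 with FMK, adjusted p = 0.0413), and that call was lost with library size alone, without DMSO replicates 1 or 2 or FMK replicates 1, 2 or 3 (adjusted p up to 0.164). Egr1, another factor of tendon collagen genes, stood at 296, 417 and 412 CPM with FMK, at 223, 249 and 300.3 CPM with OPH and at 139, 154 and 287 CPM with DMSO (0.96 with FMK, adjusted p = 0.0840, and 0.00401 with the replicate block). Of 18 TGF-β ligands, receptors, binding proteins and targets, 3 rose and 1 fell with FMK and 2 rose and 1 fell with OPH, which as 4 and 3 calls in 18 lies near the 20.6% and 16.7% of all genes called. With FMK the 3 became 1 without DMSO replicates 1 or 2 and 6 without DMSO replicate 3, and the 1 became 0 without DMSO replicate 2 or FMK replicate 1 and 2 without OPH replicates 1 or 2. With OPH the 2 became 1 without DMSO replicate 1 or OPH replicates 2 or 3 and 4 without FMK replicate 3. With the block 9 rose and 2 fell with FMK, where 13.4% of all genes did so in each direction. With OPH and the block 5 rose and 3 fell, where 11.6% and 11.3% of all genes did. The counts that rose with the block lay above those shares, as did the count that fell with OPH. The count that fell with FMK did not.

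The genes whose log2 CPM over the 9 libraries, centred on their mean, came closest to that of Scx were Dact1, Foxn3 and Tmem68, at root mean square differences of 0.081, 0.11 and 0.11 (median over the other genes tested 0.38). Dact1 stood at 33.5, 37.1 and 40.3 CPM with FMK, 44.6, 51.6 and 57.9 CPM with OPH, and 38.9, 42.6 and 58.4 CPM with DMSO. For Tnmd they were Cbr2, Hs3st3b1 and Pid1, at 0.13, 0.22 and 0.23 (median 0.89). Cbr2 stood at 13.9, 15.5 and 23.4 CPM with FMK, 22.5, 25.9 and 25.5 CPM with OPH, and 63.3, 65.3 and 56.2 CPM with DMSO. The libraries fall into treatment groups, so these differences include those between group means.

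The authors' deposited table, whose log2 fold changes run the other way (DMSO over FMK, DMSO over OPH and FMK over OPH), had an adjusted p under 0.05 for 4, 6 and 5 of the 10 members. The share of all genes under that threshold in the deposited comparisons was not computed. These counts are therefore not read against a background. In the authors' deposited table the 6 members called with OPH were Tnmd, Col14a1, Col12a1, Fmod, Kera and Dcn, with values of 0.57 (Dcn) to 1.35 (Tnmd), all higher in DMSO. For OPH and FMK the authors' deposited table called Tnmd (-0.51), Thbs4 (2.25), Col14a1 (-0.51), Kera (1.01) and Dcn (0.46), as FMK over OPH.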

How the data were processed

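Per the labels' protocols, RNA was sequenced from its polyadenylated 3' ends (QuantSeq FWD), so counts were not divided by gene length. The submitters' processing notes name mm10, STAR, cutadapt, DESeq2, FastQC and MultiQC; the sources used here do not state the counting program, annotation or strand setting. The authors deposited raw counts per gene and library, and summed counts per group, which equalled the sums of the libraries in 3 of 3 groups. Per the file headers they also deposited a DESeq2 mean signal, log2 fold changes, a Wald score and p-values; the signal and the score were not used. The 99 spike-in rows, with 1 count in all, were left out. Of the library columns, 2 carry a sample's title and 7 the title with an added letter.

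The test was edgeR's robust quasi-likelihood fit (edgeR 4.0.16, R 4.3.3) to the counts of all 9 libraries by group, after filterByExpr and TMM scaling, with no block. Tests were two-sided F tests, with Benjamini-Hochberg adjustment over 13255 genes and a threshold of 0.05. Log2 fold changes are given with the standard error or the 95% interval of the fit, and CPM as single libraries or mean ± SD. No permutation test was used, since with 3 libraries a group its exact p is at least 0.1. The pairing check found that deviations from the group means of same-numbered libraries correlated at 0.102 to 0.344 across genes in 9 of 9 pairs. Those of other pairs correlated at -0.275 to 0.0147. Deviations within a group cancel out by construction, so the low values of other pairs follow from those of same-numbered pairs and are no separate result. From the same-numbered pairs the number was read as a pairing, from the data and not from a label. Within groups the chi-square per degree of freedom of the counts was 5.47 to 13.5, so replicates differed beyond counting error. Each p-value sets a group difference against the fitted spread between cultures within groups. Without the block, that spread includes the differences between the numbers. Alternatives were RLE scaling, library size alone, other filters, DESeq2 1.42.0, limma-voom (limma 3.58.1), 2 groups only, the block, the libraries numbered 1 and 2, and each library left out.

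The members and lists were chosen with earlier results of these data known. All members were named, as were up to 4 called members of each other list with the smallest p and the 3 genes closest to Scx and Tnmd; Egr1, Thbs1, Thbs3 and Col2a1 fell outside that rule and were chosen after their values were seen. Ccn2 was listed as Ctgf in the table. Positions are from GENCODE M21 (GRCm38, the assembly of mm10); the table's own position equals its start for 8 of 10 members, not for Scx and Mkx.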

Additional observations from a re-analysis of the deposited data

How the results depend on the processing

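Of 540 member values under 18 alternatives (30 member and comparison pairs), 485 kept their direction and side of the threshold, 6 lost a call, 43 gained one and 6 turned sign. The 6 that turned were uncalled: Kera with FMK (0.097 in the libraries numbered 1 and 2, 0.029 without FMK replicate 3), Mkx with FMK (0.050 without FMK replicate 1), Dcn with FMK (0.050 without FMK replicate 3), Scx with OPH (-0.015 without DMSO replicate 1) and Egr2 with OPH (0.13 without DMSO replicate 3). With 1 library left out they ranged over -0.75 to 0.029 (Kera), -0.26 to 0.050 (Mkx), -0.26 to 0.050 (Dcn), -0.015 to 0.30 (Scx) and -0.48 to 0.13 (Egr2). Tnmd and Col14a1 against DMSO and Thbs4 with FMK kept their calls in all 18.

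Members called lower with FMK numbered 5 with the replicate block, 4 without a low-count filter, and 2 to 3 with 1 library left out. Lower with OPH they numbered 6 with DESeq2 and with the block, 5 in numbers 1 and 2 alone (where 1 was higher), and 2 to 5 with 1 library left out, the 5 without FMK replicate 3. Higher with OPH than with FMK they numbered 2 with library size alone, DESeq2 and limma-voom, 3 without a low-count filter and in numbers 1 and 2 alone, 4 with the block and 1 to 3 with 1 library left out, the 3 without FMK replicate 3 and 2 without OPH replicate 1. Lower with OPH than with FMK they numbered 2 without a low-count filter and with 2 groups only, 3 with DESeq2, 4 in numbers 1 and 2 alone, 5 with the block and 1 to 2 with 1 library left out (2 without DMSO replicate 2 or FMK replicate 3). Calls over all genes moved with the setting too. From no block to the block, the all-gene shares went from 10.1% to 13.4% lower with FMK and from 8.11% to 11.3% lower with OPH. For OPH against FMK they went from 4.2% to 7.78% higher and from 4.66% to 8.36% lower. A changed count of members is thus not read as a result about the members.

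Over all genes, OPH against FMK gave 557 higher and 618 lower, 1103 and 385 with library size alone, 1031 and 1108 with the replicate block, and 265 to 668 and 306 to 718 with 1 library left out, the lowest without OPH replicate 2. Without FMK replicates 1 or 2 or OPH replicates 1 or 3 a count also moved by over 1.5 times. For OPH against DMSO, 696 to 1178 genes were lower with 1 library left out (696 without OPH replicate 2), against 1075. The replicate block changed no member's call other than those given with the results. Library size alone put the all-gene median at -0.11 on the log2 scale for FMK against DMSO and at 0.12 for OPH against FMK. The filter of 1 CPM and 10 counts in 3 libraries kept 13322 genes and so was no stricter. Depth limits Kera most, with as few as 19 counts in a library; the causes of these shifts were not tested.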
